A study of Mus musculus with 42 samples.

Results

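Medullary thymic epithelial cells (mTEC) of low MHC class II level were compared between 2 genotypes, KO and Ski flox Control, in 5 of the 42 libraries of the series. The 5 were taken by their labels: cells sorted as Epcam+CD45-UEA+Ly51loMHCIIlo, a library number within the later-numbered 21, and genotype KO (3 libraries, replicates 5, 6 and 7) or Ski flox Control (2 libraries, replicates 1 and 2). These 2 are the Ski flox Control libraries of the subset, and the comparison could not be repeated in further ones. Per the series' design, KO stands for deletion of Ski in thymic epithelial cells. The Cre driver, the deleted exons, the alleles that distinguish Ski flox Control from the further genotype labelled Control, the strain, and the sex and age of the animals were not stated in the labels. All 21 later-numbered libraries, which cover 3 sorted subsets and 3 genotypes, entered one model. Each library came from 200 sorted cells, and no label says whether libraries came from separate animals, so p-values measure the spread between libraries, which may be partly technical.

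The medulla of the thymus tests developing T cells against self-antigens, and mTEC are the epithelial cells that display them. MHCII-low mTEC are a mixed compartment. It holds immature cells that make the chemokine CCL21 and await RANK and CD40 signals, and it also holds post-mature cells that take on the programmes of peripheral tissues, such as tuft, neuroendocrine, muscle and skin cells. Thymic tuft cells depend on the transcription factor POU2F3, carry the taste-transduction cascade and secrete IL-25. SKI is a corepressor that binds SMAD proteins and limits transcription downstream of TGF-beta.

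Promoter windows are shown for 4 genes of the tuft cell and immediate early lists, which held the highest shares of members wholly above Ski flox Control. All 4 windows hold the motif marked in them, so they do not stand for the other members of these lists. Each is the 250 bases before the RefSeq start site in GRCm38.p6, 5′ to 3′ on the gene's strand. Capitals mark the octamer bound by POU factors, ATGCAAAT or its reverse complement ATTTGCAT, in the tuft cell genes Tas2r108 (a bitter taste receptor) and Hpgds (a prostaglandin D synthase).
Tas2r108: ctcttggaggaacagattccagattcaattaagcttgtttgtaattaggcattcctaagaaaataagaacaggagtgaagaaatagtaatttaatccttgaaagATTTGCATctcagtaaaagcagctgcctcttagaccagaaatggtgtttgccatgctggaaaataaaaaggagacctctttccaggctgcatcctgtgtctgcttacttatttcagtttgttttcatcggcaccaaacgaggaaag
Hpgds: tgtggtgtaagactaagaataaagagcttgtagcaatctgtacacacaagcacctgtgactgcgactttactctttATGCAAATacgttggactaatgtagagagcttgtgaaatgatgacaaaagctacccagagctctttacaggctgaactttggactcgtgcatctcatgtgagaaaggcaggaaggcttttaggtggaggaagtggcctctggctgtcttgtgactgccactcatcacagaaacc
Capitals mark the core of the cAMP response element, TGACG or its reverse complement CGTCA, in the immediate early genes Junb (an AP-1 subunit) and Dusp1 (a MAP kinase phosphatase).
Junb: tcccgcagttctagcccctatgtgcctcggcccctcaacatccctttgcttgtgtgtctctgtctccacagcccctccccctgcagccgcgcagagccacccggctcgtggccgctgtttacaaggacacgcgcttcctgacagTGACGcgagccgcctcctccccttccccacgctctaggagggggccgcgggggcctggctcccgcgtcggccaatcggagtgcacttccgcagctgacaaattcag
Dusp1: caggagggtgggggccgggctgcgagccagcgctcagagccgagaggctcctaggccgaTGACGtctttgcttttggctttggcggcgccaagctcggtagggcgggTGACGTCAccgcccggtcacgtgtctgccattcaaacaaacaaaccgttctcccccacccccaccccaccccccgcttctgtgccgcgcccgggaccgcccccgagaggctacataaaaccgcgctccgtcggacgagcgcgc
Tas2r108 lies at chr6:40493342-40493591 on the plus strand, Hpgds at chr6:65144731-65144980, Junb at chr8:84978749-84978998 and Dusp1 at chr17:26508473-26508722 on the minus strand. In Dusp1 a forward and a reverse match overlap in the full element TGACGTCA. Of all 32851 promoter windows of this length, 1.6% held the octamer and 17.8% held the core, on either strand. Among the tuft cell list 3 of 19 genes with a window held the octamer (Tas2r118 is the third), and among the immediate early list 10 of 16 held the core. A gene was counted if any of its windows held a match. These counts of genes and the shares of windows are therefore in unlike units. A match describes letters in this window only.

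The 5 libraries held 4656581 to 6098199 counts. Gene levels are in CPM, that is, counts per TMM-scaled library size, in the order KO replicates 5, 6 and 7 and then Ski flox Control replicates 1 and 2. Epithelial markers were present: Epcam, used in the sort, was at 1108, 626 and 530.3 CPM in KO and 231 and 478 in Ski flox Control, and the simple-epithelium keratin Krt8 at 1597, 530.2 and 706 and 222 and 261. Both were lower in each Ski flox Control library than in any KO library, and the part of this in the results was not tested. Of 11 medullary TEC markers, 5 had a positive and 6 a negative fold change of KO minus Ski flox Control (median log2 -0.29). All KO libraries lay above both Ski flox Control libraries for 4 and below for 2, against 9.05% and 9.92% of all genes. Ptprc, which encodes the CD45 that the sort excluded, was nevertheless at 387, 571 and 742 CPM in KO and 640.1 and 624 in Ski flox Control. All 21 thymocyte and T cell markers and all 19 myeloid and dendritic markers were tested, and none was at 0 in all 5 libraries. In bulk RNA, fewer cells of a type and less RNA per cell cannot be told apart.

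One KO library stood apart from the other two before any gene was considered. Over all genes tested, KO replicate 5 correlated best with Control replicate 4 (Pearson r = 0.891 across genes on the log2(CPM + 1) scale) and less with KO replicates 6 and 7 (0.825 and 0.836). Replicates 6 and 7 correlated with the Ski flox Control libraries at 0.862 to 0.888, and with each other at 0.875. The medians of the gene lists are therefore given with and without KO replicate 5. Genes are not independent replicates, and these values are a description.

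Ski itself was lower in every KO library than in either Ski flox Control library. Its level was 5.73, 8.94 and 0.502 CPM in KO and 31.1 and 30.9 in Ski flox Control (chromosome 4, 155154075 to 155222592 in GRCm38). The groups did not overlap, and KO replicate 7 was the lowest (log2 fold change -2.61 ± 1.17 (SE), adjusted p = 0.57 by edgeR). On the log2(CPM + 1) scale the difference was -2.78 (two-sided exact permutation p = 0.2, the smallest that 3 against 2 allows; 0.4 adjusted over 2 single values). The 2 late Control libraries held 20.4 and 7.49 CPM, so KO replicate 6 lay above one of them and Ski level did not separate KO from Control. The second single value, the number of genes detected, was 19108, 15783 and 16382 in KO and 15426 and 17583 in Ski flox Control, a difference of 586.5 (exact permutation p = 0.8).

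No gene passed the threshold between KO and Ski flox Control. With edgeR's quasi-likelihood test, 0 of 20216 genes (0.0% higher and 0.0% lower) had a Benjamini-Hochberg adjusted p under 0.05, and the smallest was 0.102, for Cd63 and Uap1. At an unadjusted p under 0.05 there were 1735 genes, 875 higher (4.33%) and 860 lower (4.25%). DESeq2 called 235 genes higher (1.16%) and 112 lower (0.554%), and limma voom 27 (0.134%) and 53 (0.262%). All 3 KO libraries lay above both Ski flox Control libraries for 1830 genes (9.05%) and below both for 2006 (9.92%). Without KO replicate 5 these shares were 13.6% and 14.7%. The groups below are read against these shares.

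**Figure D1:**
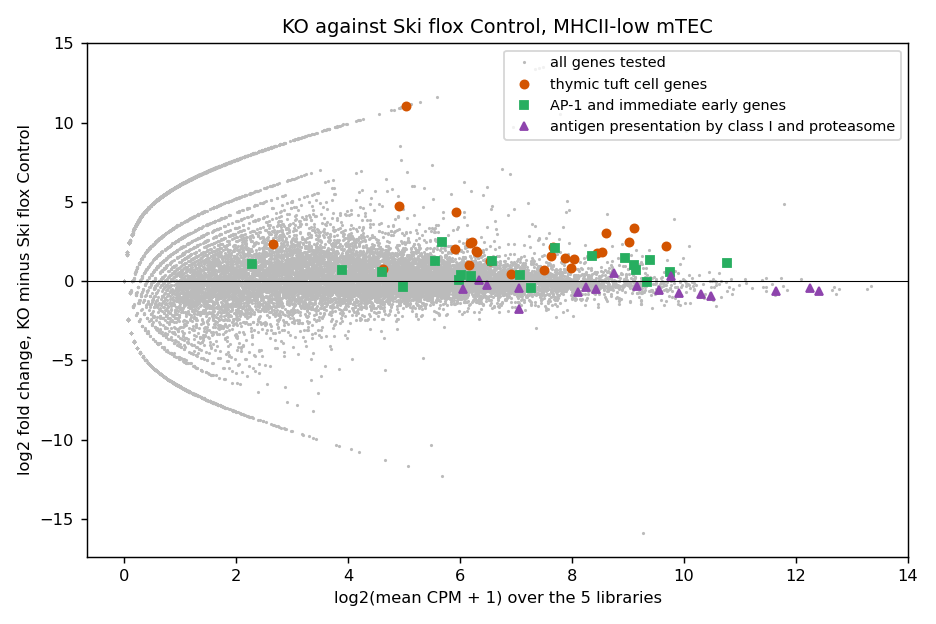
Each grey point is 1 of 20216 genes tested in MHCII-low mTEC, by mean CPM of the 5 libraries (x, log2 scale) and log2 fold change of KO minus Ski flox Control (y); coloured points are the members of 3 gene lists. All 25 tuft cell genes lie above 0, 18 of 21 immediate early genes lie above 0, and 15 of 18 class I genes lie below 0; the curved outer bands are genes absent from a group.

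Thymic tuft cell genes held higher values in KO than in Ski flox Control. All 25 tested members had a positive fold change, against 10263 of 20216 genes, with a median of 1.91 on the log2 scale against 0.02 for all genes. For 16 of the 25 all KO libraries lay above both Ski flox Control libraries, and for 0 did all lie below. None passed the threshold, and 7 had an unadjusted p under 0.05. Summed over the list, levels were 12079, 4704 and 5019 CPM in KO and 1965 and 1794 in Ski flox Control, so the groups did not overlap. KO replicate 5 held more than the other KO libraries for 23 members, and without it the median was 1.22, with 25 of 25 positive and 16 not overlapping.

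The tuft members are described by role, starting with the taste cascade. Lrmp, an endoplasmic reticulum protein of taste and tuft cells (chromosome 6, 145115653 to 145174934), was at 1952, 672 and 974 CPM in KO and 327 and 188 in Ski flox Control (log2 fold change 2.22 ± 0.45 (SE), adjusted p = 0.178). Tas2r108 (chromosome 6, 40493529 to 40494541), whose octamer is shown above, was at 111, 21.4 and 26.5 CPM in KO and had 0 counts in both Ski flox Control libraries (adjusted p = 0.194). Set against a floor of 3 counts over the 2 Ski flox Control libraries, Tas2r108 was at least 172-fold higher in KO. The G protein subunit Gnat3 (gustducin) was at 1229.6, 1166 and 193 CPM in KO and 124 and 43.8 in Ski flox Control, with KO replicate 7 nearest to the Ski flox Control range (log2 fold change 3.36 ± 1.32 (SE), adjusted p = 0.529). Its partner Gnb3 was at 1113, 289 and 392 and 108 and 39.7 CPM.

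The lineage regulators separated less clearly. Pou2f3 was at 179, 17.7 and 57.6 CPM in KO and 17.4 and 24.3 in Ski flox Control, and Dclk1, a kinase that marks tuft cells, at 585, 40.7 and 176 and 82.5 and 95.7. For both genes KO replicate 5 was far above every other of the 5 libraries and KO replicate 6 fell within or below the Ski flox Control range. Without KO replicate 5 their fold changes went from 2.02 to 0.86 and from 1.58 to 0.29. Sox9, a transcription factor, did not overlap, at 196, 61.6 and 69.8 CPM in KO and 35.4 and 22.8 in Ski flox Control.

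Several effector genes of tuft cells separated the groups. Chat, which makes acetylcholine, was at 142, 30.6 and 117 CPM in KO and 0.643 and 8.54 in Ski flox Control. The IL-25 receptor chain gene Il17rb was at 219, 31 and 77.9 and 25.9 and 13.4 CPM, and Alox5ap, which serves leukotriene synthesis, at 372, 308 and 233 and 152 and 191. These groups did not overlap. Il25 itself overlapped, at 232, 31 and 65.1 CPM in KO and 15.6 and 44.9 in Ski flox Control.

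**Figure D2:**
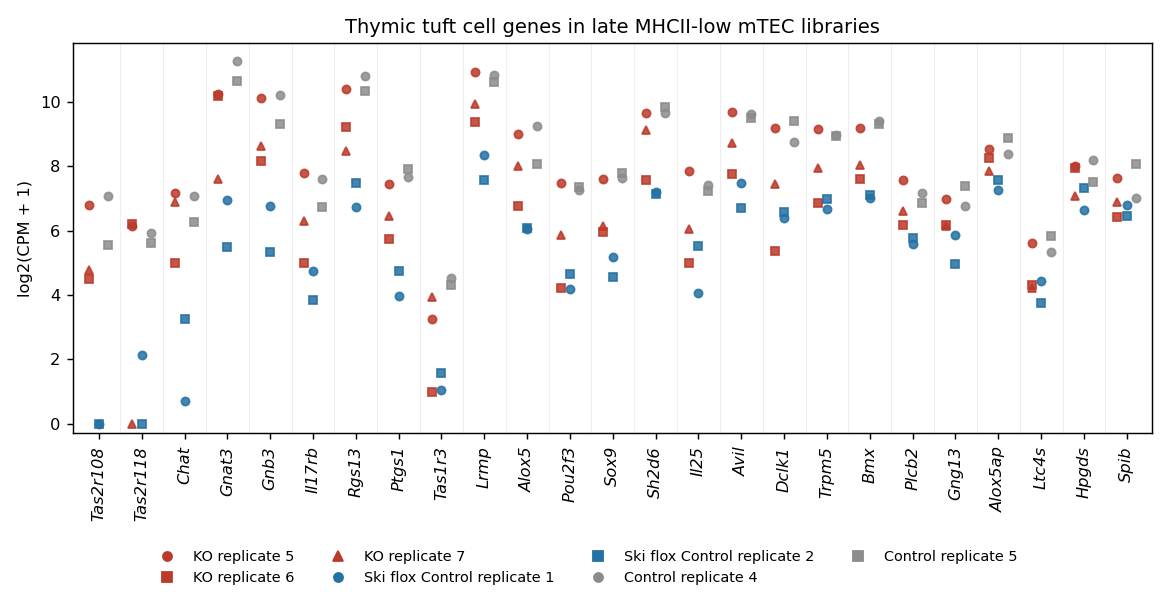
Level of the 25 tuft cell genes on the log2(CPM + 1) scale in each late MHCII-low mTEC library, 1 point per library, ordered by fold change of KO minus Ski flox Control. Both Ski flox Control libraries lie below both Control libraries for all 25 genes, and KO replicate 5 is the highest KO library for 23 of them.

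The further genotype labelled Control sets these levels in context. The 2 late Control libraries held summed tuft levels of 13417 and 11214 CPM, above every KO and Ski flox Control library except KO replicate 5, which lay above one of them. All 25 members were higher in both Control libraries than in both Ski flox Control libraries. The median log2 fold change was -0.64 for KO minus Control and -2.73 for Ski flox Control minus Control, comparisons that share their Control libraries with each other and a group each with the main one. Against Control, 2 tuft members passed the threshold as lower in Ski flox Control (43 of 20216 genes, 0.213%) and 0 did in KO (0.0%).

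AP-1 and immediate early genes, the first genes that stimulated or handled cells transcribe, also held higher values in KO. Of 21 tested members 18 had a positive fold change, the median was 0.69, and for 10 all KO libraries lay above both Ski flox Control libraries, with 0 below. Summed levels were 8498, 7893 and 8616 CPM in KO and 4079 and 4938 in Ski flox Control, with means of 8336 ± 388 (SD, n = 3) and 4509 ± 607 (n = 2). Here the 3 KO libraries were close together, and without KO replicate 5 the median was 0.62 with 17 of 21 positive. The late Control libraries held 8947 and 10316 CPM, also above both Ski flox Control libraries.

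Junb (chromosome 8, 84974484 to 84978718) was at 1020.0, 648 and 990.2 CPM in KO and 411 and 288 in Ski flox Control (log2 fold change 1.34 ± 0.26 (SE), adjusted p = 0.178). Ier2, an early response regulator, was at 814, 533 and 628 and 236 and 245 CPM (log2 fold change 1.45 ± 0.36 (SE), adjusted p = 0.288). The AP-1 genes Fos and Jun showed the same separation without passing the threshold. Fos was at 2252, 2370.5 and 2097 CPM in KO and 783 and 1219.6 in Ski flox Control, and Jun at 411, 207 and 278 and 64.3 and 73.4. Egr1, a zinc finger factor, was at 495, 393 and 452 and 133 and 167 CPM, and Dusp1 at 965, 872 and 1128 and 571 and 737.

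Genes of class I antigen presentation held lower values in KO. Of 18 tested members 15 had a negative fold change and the median was -0.48. For 12 all KO libraries lay below both Ski flox Control libraries and for 2 above, and without KO replicate 5 these counts were again 12 and 2, with a median of -0.35. Among the 2248 genes of at least 100 CPM, 447 were below and 261 above. Summed levels were 16099, 19357 and 18345 CPM in KO, 25288 and 26859 in Ski flox Control and 16425 and 13514 in Control.

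Nlrc5, the transactivator of class I genes (chromosome 8, 94434356 to 94527272), was at 33.6, 83.4 and 85.2 CPM in KO and 234 and 225 in Ski flox Control (log2 fold change -1.77 ± 0.39 (SE), adjusted p = 0.194). The class I heavy chain H2-K1 was at 2861, 2432 and 2639 and 3936 and 4160.5 CPM (log2 fold change -0.61 ± 0.15 (SE), adjusted p = 0.276), and the light chain B2m at 3989, 5494 and 3975 and 6555 and 7325. The immunoproteasome subunit Psmb9 was at 414, 983 and 857 CPM in KO and 1306 and 1217 in Ski flox Control. H2-K1 shares sequence with other class I genes, so reads may be split among them. The peptide-loading chaperone Calr went the other way, at 611, 376 and 478 CPM in KO and 325 and 366 in Ski flox Control.

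Pathways that drive medullary maturation were on balance lower in KO. Of 19 RANK, CD40 and NF-kappaB genes 15 had a negative fold change (median -0.68), with 8 wholly below and 0 above Ski flox Control. Tnfrsf11a, which encodes RANK, was at 56.4, 35.9 and 74.8 CPM in KO and 87 and 145 in Ski flox Control (log2 fold change -1.06 ± 0.33 (SE), adjusted p = 0.411). The adaptor Traf3 was at 32, 35 and 47.2 and 59.8 and 101 CPM. Summed levels of the list were 1960.1, 4429.9 and 4949 CPM in KO and 5391 and 5843 in Ski flox Control, with KO replicate 5 the lowest and near the Control libraries at 2698 and 2757. Relb, an NF-kappaB subunit, shows that gap, at 31.1, 348 and 435 CPM in KO and 483 and 374 in Ski flox Control. Without KO replicate 5 the median of the list was -0.32.

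Regulators of mature medullary cells ran in the same direction, with 11 of 14 negative and a median of -0.86 (-0.63 without KO replicate 5). The costimulatory ligand gene Cd80 was at 12.9, 38.5 and 12.9 CPM in KO and 139 and 34.4 in Ski flox Control, and overlapped. Cd86, which shares its receptors, did not, at 148, 455 and 346 and 682 and 661 CPM. Aire, the regulator of self-antigen expression, was low in all 5, at 12.1, 27.2 and 4.86 CPM in KO and 31.3 and 25.9 in Ski flox Control (log2 fold change -0.96 ± 0.60 (SE), adjusted p = 0.638). Fezf2, a second such regulator, overlapped, at 44, 5.56 and 9.21 and 26.1 and 17.3 CPM, and its sign depended on single libraries.

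Immature medullary genes were on balance higher in KO, with 11 of 14 positive and a median of 1.79 (0.94 without KO replicate 5). The list of 15 also names Ccl21a, which encodes CCL21. That gene had no match by name, so it is missing from these counts and from the summed level. All KO libraries lay above Ski flox Control for 6 members and below for 1. The summed level of the list overlapped, at 3263, 1860.3 and 1706 CPM in KO and 1253 and 2366 in Ski flox Control, with KO replicates 6 and 7 below Ski flox Control replicate 2. Ackr4, a scavenger receptor for CCL21, was at 112, 63.9 and 37.3 CPM in KO and 4.29 and 12.3 in Ski flox Control, and the tight junction gene Cldn3 at 459.5, 109 and 192 and 13.9 and 67.3. The basal keratins diverged. Krt5 was at 72.8, 54 and 44 CPM in KO and 3.43 and 37.5 in Ski flox Control, while its partner Krt14 was at 50.2, 29.8 and 68.5 and 152 and 169.8, the single member wholly below. Krt18, a simple-epithelium keratin outside the list, was at 2524, 979 and 1265 and 311 and 369.8 CPM (log2 fold change 2.22 ± 0.47 (SE), adjusted p = 0.194).

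Other tissue-like lists held members with 0 counts in KO or in Ski flox Control, but not in both. These were 8 of 19 neuroendocrine and ciliated genes, 3 of 12 muscle-like, 4 of 19 enterocyte-like and 10 of 24 keratinocyte-like genes. A further 2 neuroendocrine and ciliated and 2 keratinocyte-like genes had 0 counts in all 5 libraries. The share of such genes over all genes tested was not counted. Of the neuroendocrine and ciliated genes 14 were positive, with a median of 4.09, or 2.15 when genes absent from a group were placed at the 3-count floor. For these floor medians, a gene whose sign changed at the floor was put at 0. Genes with 0 counts in all 5 libraries stayed at 0. Without KO replicate 5 the median, not set at the floor, was 1.61, with 11 of 19 positive. Snap25, a synaptic fusion protein, was at 40.6, 40.3 and 6.03 CPM in KO and had 0 counts in Ski flox Control, at least 87.9-fold higher. Chga, a granule protein, was at 77.4, 86.4 and 6.87 CPM in KO and 0 and 1.75 in Ski flox Control. Insm1, a neuroendocrine transcription factor, was the reverse, at 11.8, 20.1 and 6.03 and 38.4 and 22.6 CPM. Muscle-like and enterocyte-like lists had medians of 2.11 and 1.67, or 1.54 and 1.30 at the floor. Summed muscle-like levels did not overlap, at 223, 84.0 and 41.4 CPM in KO and 28.1 and 36.1 in Ski flox Control. Summed enterocyte-like levels overlapped, at 4520, 489 and 128 and 188 and 336 CPM. Without KO replicate 5 the muscle-like and enterocyte-like medians were 0.00 and -0.14, so their positive sign rested on that library. Keratinocyte-like genes had a median of 0.81, 0.00 at the floor and -0.04 without that library. For AIRE-dependent and FEZF2-dependent self-antigens the medians were 0.00. That is the value of members with 0 counts in all 5 libraries, 4 of 14 and 1 of 13. The AIRE-dependent list held 5 positive and 5 negative members, and the FEZF2-dependent list 6 and 6. Summed AIRE-dependent levels overlapped, at 1631, 183 and 73.0 CPM in KO and 355 and 460 in Ski flox Control. Without KO replicate 5 the medians were -0.32 (3 of 14 positive) and -0.81 (3 of 13 positive).

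**Figure D3:**
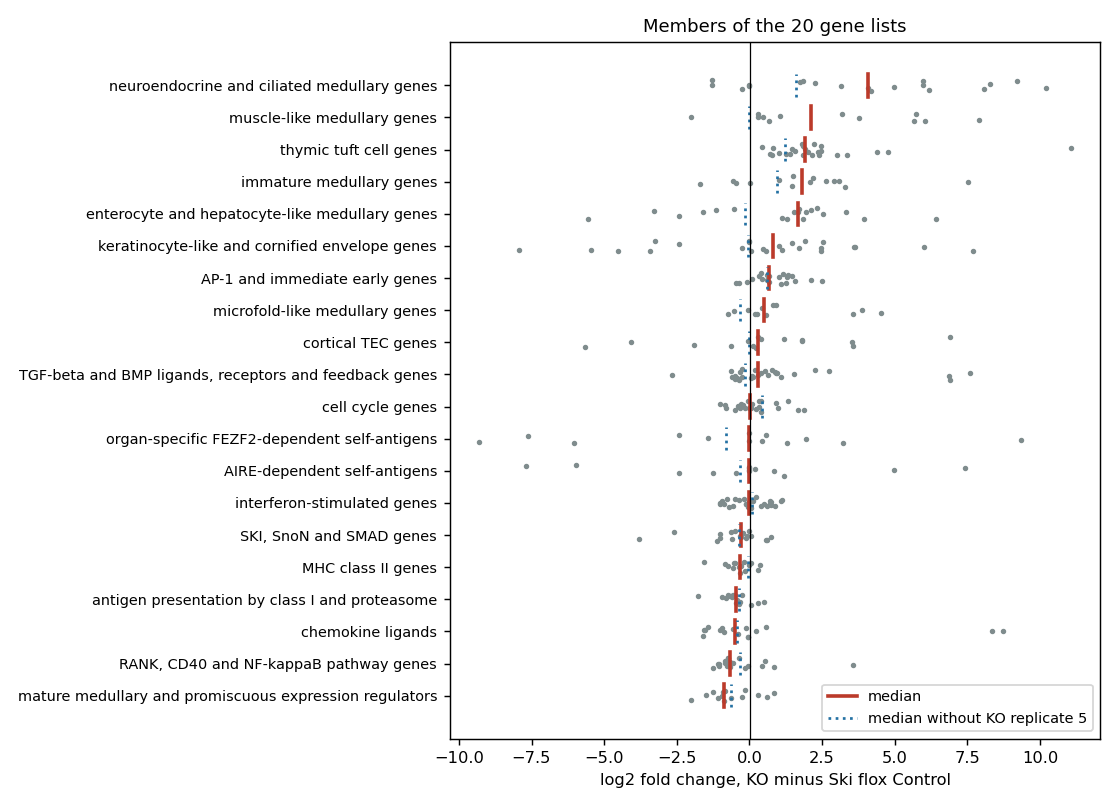
Log2 fold change of KO minus Ski flox Control for each tested member (grey points) of 20 gene lists in MHCII-low mTEC, with the list median (red line) and the median without KO replicate 5 (dotted blue line). Tuft and immature medullary lists keep positive medians of 1.22 and 0.94 without that library, while the muscle-like, enterocyte-like and keratinocyte-like medians go to 0.00, -0.14 and -0.04.

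Within the pathway of SKI itself, 4 of 18 tested members were positive and the median was -0.30 (-0.36 without KO replicate 5), with 5 wholly below and 1 above. Apart from Ski, Smad2 (a receptor-activated SMAD) was at 73.7, 50.0 and 99.8 CPM in KO and 109 and 114 in Ski flox Control, and the groups did not overlap. Skil, which encodes the SKI relative SnoN and is a TGF-beta target, overlapped at 80.6, 85.4 and 105 and 114 and 80.8 CPM, as did the inhibitory Smad7 at 6.85, 10.9 and 4.35 and 9.86 and 11.2. The deacetylase Hdac1, at 144, 153 and 169 and 120.2 and 89.2 CPM, was the member above. Of 29 TGF-beta and BMP ligands, receptors and feedback genes 19 were positive (median 0.29, and -0.16 without KO replicate 5), and 1 was wholly above and 1 below. Their summed level went the other way without overlap, at 1513, 2763 and 1725 CPM in KO and 2793 and 2805 in Ski flox Control. In Control it was 1497 and 1335 CPM. Most of this sum in each KO and Ski flox Control library was a single member, the SMAD target gene Id2. Id2 was at 842, 2254 and 1184 CPM in KO and 2209 and 2258 in Ski flox Control, and overlapped. The summed level therefore does not describe the list as a whole.

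Interferon-stimulated genes were divided, with 13 of 28 positive and a median of -0.02 (17 of 28 and 0.08 without KO replicate 5). All KO libraries lay above both Ski flox Control libraries for 5 members and below for 4, against 9.05% and 9.92% of all genes. Irf7, a transcription factor of the interferon response, was at 552, 693 and 1059.6 CPM in KO and 352 and 379 in Ski flox Control and did not overlap. MHC class II genes had a median of -0.33, and -0.04 without KO replicate 5. Cd74, the invariant chain, overlapped at 6539, 11415 and 10545 and 9889 and 13419 CPM. The list cannot serve as a finding on its own, since the sort used MHC class II. Cell cycle genes had 12 of 24 positive and a median of 0.02, but without KO replicate 5 they had 20 of 24 positive, a median of 0.43, 7 members wholly above and 1 below. Their summed level was 393, 1916 and 2373 CPM in KO and 1847 and 1415 in Ski flox Control, with KO replicate 5 far below the other libraries.

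The genes of smallest p that also separated the groups were named by rule, and none passed the threshold. Lower in KO, Cd63, a tetraspanin of endosomes (chromosome 10, 128900989 to 128912822), was at 414, 482 and 493 CPM in KO and 1041 and 1582 in Ski flox Control (log2 fold change -1.50 ± 0.24 (SE), adjusted p = 0.102). Uap1, which makes UDP-N-acetylglucosamine (chromosome 1, 170141938 to 170174957), was at 104, 147 and 148 and 377 and 322 CPM (log2 fold change -1.39 ± 0.22 (SE), adjusted p = 0.102). For both genes the KO libraries were close together and the late Control libraries lower still, at 252 and 310.0 CPM for Cd63 and 81.5 and 84.9 for Uap1. The bicarbonate transporter Slc4a8 was at 39.7, 92.9 and 70.5 CPM in KO and 219 and 203 in Ski flox Control, and Anxa3, a membrane-binding annexin, at 370.2, 637 and 567 and 1185 and 1305. Madcam1, an addressin for lymphocytes, had 0 counts in the 3 KO and 2 Control libraries and was at 142 and 21.3 CPM in Ski flox Control, at least 474-fold lower in KO. The cytokine subunit gene Il27 was at 0, 2.58 and 1 and 100.3 and 16.9 CPM. The others of this direction were Ppp4r2, Insl6, Mbp, Arhgap31 and Gnb4, with fold changes from -1.95 (Ppp4r2) to -1.43 (Mbp).

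Higher in KO, Ano10, an anoctamin membrane protein (chromosome 9, 122175874 to 122294423), was at 190.0, 100.1 and 84.2 CPM in KO and 13.7 and 21.7 in Ski flox Control (log2 fold change 2.82 ± 0.50 (SE), adjusted p = 0.157). Bpgm, an enzyme of bisphosphoglycerate metabolism, was at 407, 167 and 195 and 13.7 and 65.5 CPM. Shisa5 was at 447, 519 and 579 and 245 and 268 CPM, and Cnp, a nucleotide phosphodiesterase, at 232, 246 and 377 and 57.2 and 116. Mal2, Crtc1, Gdap1l1 and Tmlhe had 0 counts in Ski flox Control, and Mal2, a protein of epithelial membrane transport, was at 98.1, 23.6 and 8.54 CPM in KO, at least 139.9-fold higher. Anxa6 and Hagh complete the set, with fold changes of 1.61 and 1.38. For Junb, Lrmp, Krt18 and Bpgm the late Control libraries lay at or above most KO libraries, at 1069 and 1100.2, 1839.7 and 1578, 2235 and 2274 and 413 and 319 CPM.

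**Figure D4:**
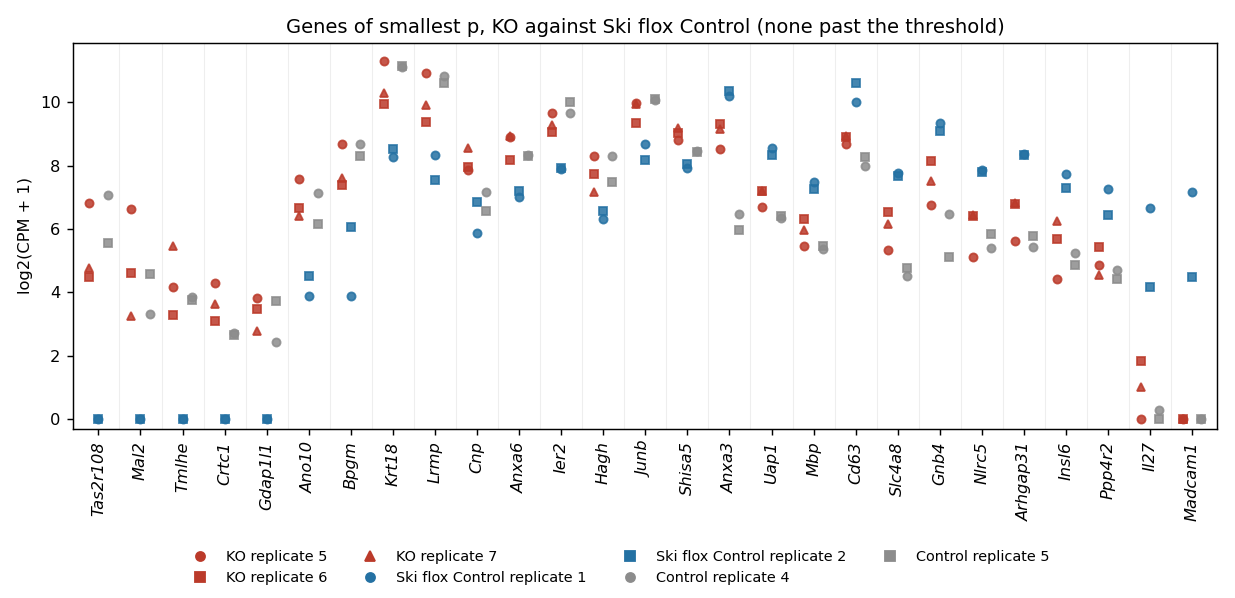
Level of the genes named for their small p on the log2(CPM + 1) scale in each late MHCII-low mTEC library, 1 point per library, ordered by fold change of KO minus Ski flox Control. The KO and Ski flox Control points do not overlap for any of them, by the rule that chose them, and none of these genes passed the threshold.

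Set against Control in the model of 21 libraries, more genes were called for Ski flox Control than for KO. By edgeR 234 genes were called higher (1.16%) and 43 lower (0.213%) in Ski flox Control than in Control, and 5 higher (0.0247%) and 0 lower in KO than in Control. In the 7 late MHCII-low libraries alone both comparisons gave 0 calls, in 40 libraries they gave 2 and 0, and with detected genes as a covariate 18 and 3. Without KO replicate 5 the second comparison gave 176 calls. The first gave 78 without Ski flox Control replicate 1, 149 without replicate 2 and 482 without KO replicate 5. Junb, Lrmp, Cd63 and Uap1 were among the genes called between Ski flox Control and Control (adjusted p = 0.00772, 0.0101, 0.00104 and 0.00104), and their adjusted p between KO and Control was 0.87, 0.844, 0.527 and 0.538. A difference between these comparisons is the KO against Ski flox Control test itself, which called 0 genes.

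Markers of other cell types differed between libraries, and their part in the results was not tested. The 19 myeloid and dendritic markers summed to 3621, 3725 and 4268 CPM in KO, 3638 and 7626 in Ski flox Control and 1452 and 1059.7 in Control. The range in Ski flox Control came largely from lysozyme, Lyz2, at 169 and 3113 CPM, against 1299.5, 167 and 442 in KO. Of these markers 8 had a positive and 11 a negative fold change of KO minus Ski flox Control (median -0.31), and all KO libraries lay above both Ski flox Control libraries for 1 and below for 4. The members that follow were chosen after their values were seen. Batf3, a factor of cross-presenting dendritic cells, was at 23.3, 188 and 135 CPM in KO, 269 and 249 in Ski flox Control and 27.5 and 26.5 in Control. The adaptor Tyrobp was at 257, 666 and 599, 780.4 and 1099.5 and 204 and 147 CPM in the same order, so KO replicate 5 again lay nearer to Control. The chemokine gene Ccl22, transcribed by mature dendritic cells and mTEC, was at 154, 1716 and 1568 CPM in KO, 1515 and 3102 in Ski flox Control and 24.6 and 0.25 in Control.

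The summed lymphoid and fibroblast markers overlapped between KO and Ski flox Control, and the endothelial markers did not. The 21 thymocyte and T cell markers summed to 3076, 3635 and 7179.7 CPM in KO and 4875 and 3429 in Ski flox Control. The 12 B lineage markers summed to 1049, 1826 and 28799 and 1331 and 9660.0 CPM, with KO replicate 7 far above the rest. Endothelial markers summed to 127, 86 and 117 and 44.1 and 67.5 CPM, and fibroblast and pericyte markers to 145, 157 and 131 and 14.8 and 252.

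**Figure D5:**
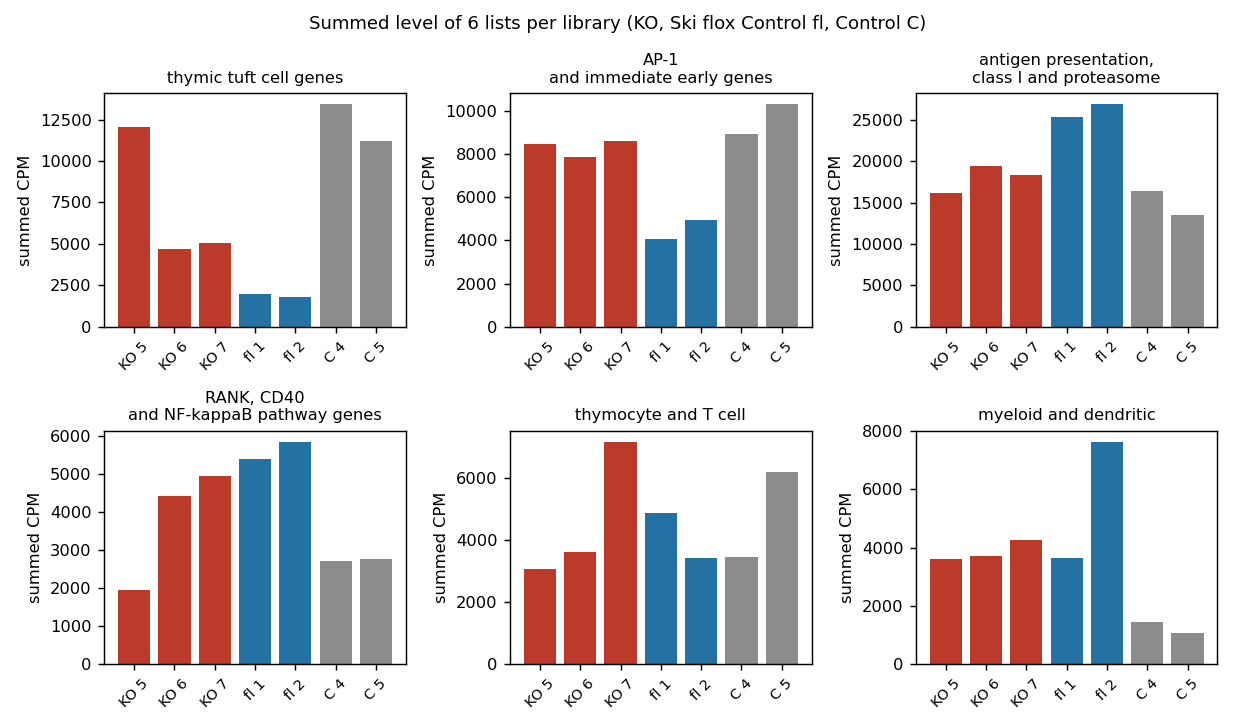
Summed CPM of 4 gene lists and 2 marker lists in each late MHCII-low mTEC library, 1 bar per library, each panel starting at 0. Tuft and immediate early sums are lowest in the 2 Ski flox Control libraries, class I sums are highest there, and myeloid and dendritic sums are lower in both Control libraries than in the other 5.

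Nothing was shown to be particular to the MHCII-low subset. The test of whether the KO minus Ski flox Control difference itself differed from that in cortical epithelium called 0 of 20216 genes (0.0% in each direction; at an unadjusted p under 0.05, 521 higher, 2.58%, and 753 lower, 3.72%). Against MHCII-high mTEC it called 0 (650 higher, 3.22%, and 644 lower, 3.19%, unadjusted). Within the tuft list the smallest adjusted p of this test was 0.702 against cortical epithelium and 0.76 against MHCII-high mTEC. The median tuft fold change of KO minus Ski flox Control was 1.91 in MHCII-low mTEC, 1.45 in cortical epithelium and -0.11 in MHCII-high mTEC. In cortical epithelium the summed tuft level was at most 885 CPM in any KO or Ski flox Control library. For immediate early genes the medians were 0.69, 0.43 and 0.53, and for class I genes -0.48, 0.01 and -0.06.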

How the data were processed

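RNA was sequenced from 200 sorted cells per library with SMART-Seq v4 and Nextera XT, per the labels' protocols, which mark no strand and add no molecular identifiers. The authors deposited raw counts per Ensembl gene. The submitters' processing notes name GRCm38, SAMtools 1.2, HTSeq 0.4.1, FastQC 0.11.3 and Picard 1.134; aligner and annotation: not given in the sources used here. Of 53465 identifiers 53360 matched GENCODE M21. Floors cover counting error only, whereas the SEs also take in the spread between libraries.

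In R 4.3.3, edgeR 4.0.16 fitted a mean for each of 9 groups to 21 libraries (TMM; filterByExpr, minimum count 10, minimum total 15, which kept 20216 of 34183 genes; glmQLFit and glmQLFTest; coefficient of variation 0.945). P-values were adjusted over all genes tested, at a threshold of 0.05. SEs came from the F statistic. Single values were compared by two-sided exact permutation tests in SciPy 1.17.1. DESeq2 1.42.0 and limma voom 3.58.1 were alternatives. The model was also run on counts simulated under its own assumptions, which does not show how well those hold in these libraries.

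Named genes were a fixed set plus, with groups not overlapping, the 10 of smallest p per direction with a median of 10 CPM in the higher group, the 10 with 100 CPM and a log2 fold change of 1, and up to 2 per list. Genes called by both DESeq2 and limma voom, or by edgeR between KO and Control, were also counted as named. Promoters came from RefSeq GRCm38.p6. The members and lists were chosen with earlier results of these data known.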

Additional observations from a re-analysis of the deposited data

How the results depend on the processing

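The absence of calls between KO and Ski flox Control held with RLE size factors, with library size only (added after seeing the data), with a filter of 10 CPM in 2 libraries, in the 5 or the 7 late MHCII-low mTEC libraries alone, in all 40 libraries and with detected genes as a covariate. It did not hold with no count filter (281 higher, 193 lower), DESeq2 (235 and 112), limma voom (27 and 53) or the log2 ratio of Xist to Y-linked counts as a covariate (1 higher, Lrmp, and 4 lower, Uap1, Cd63, Slc4a8 and Anxa3); the cause was not tested. Y-linked counts were 0 in the 7 late MHCII-low libraries, with 238 to 1100 counts of Xist, so among these the covariate followed Xist alone. Leaving out one library gave 0 higher and 0 to 1 lower calls (Ighv13-2 without Ski flox Control replicate 1, Prim2 without KO replicate 7). KO minus Control gave 385 calls with no count filter, 10 at 10 CPM, 0 in the 7 libraries, 0 in the 40, 201 with DESeq2, 43 with limma voom and 3 with detected genes. Ski flox Control minus Control gave 1023 with no count filter, 0 in the 7 libraries, 2 in the 40, 1032 with DESeq2 and 18 with detected genes. The test against cortical epithelium gave 252 with no count filter, 1 with limma voom and 0 to 3 when leaving out one library (3 without KO replicate 7), and that against MHCII-high mTEC gave 239 with no count filter. Leaving out one library gave 4 to 176 calls for KO minus Control and 78 to 482 for Ski flox Control minus Control.

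Of 118 named genes under these settings, 1660 of 1884 values kept direction and side of the threshold, 209 newly passed it (78 with DESeq2, 68 with limma voom, 58 with no count filter, 5 with the Xist covariate) and 15 changed sign. The named genes include the 68 called by both DESeq2 and limma voom. Those pass with these tools by the way they were chosen, so the counts for DESeq2 and limma voom do not measure sensitivity. Leaving out one library, the log2 fold change ranged from -0.29 to 0.15 for Skil, -1.53 to 0.29 for Fezf2, -1.62 to 1.01 for Psmb11, -0.37 to 0.22 for Anxa5 and -0.78 to 0.065 for Glipr2. Psmb11 was also at -1.87 with limma voom, -2.10 with the Xist covariate and -0.45 with detected genes, and Anxa5 at 0.025 with RLE, 0.016 with library size only and 0.025 with DESeq2. The difference in detected genes ranged from -492 (without Ski flox Control replicate 1) to 1665 (without replicate 2), and was -422 without KO replicate 5. Over all genes the median of KO minus Ski flox Control was 0.02, and 0.10 with DESeq2 and -0.12 with limma voom. The median of all genes in Ski flox Control minus Control was -0.07, and -0.20 with RLE and -0.27 with library size only. No paired analysis was possible because the labels give no replicate numbers; those used here follow accession order and only name libraries.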

Other observations

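Of the genes tested, 68 were called by both DESeq2 and limma voom between KO and Ski flox Control and by edgeR none. The following were chosen after their values were seen. Among those lower in KO, the ribosome-associated scaffold Rack1 was at 390.2, 464 and 474 CPM in KO and 741 and 775 in Ski flox Control, and the nucleolar chaperone Npm1 at 218, 386 and 345 and 627 and 656. Il15, a cytokine for lymphocytes of the medulla, was at 17, 113 and 83.7 and 258 and 242 CPM, and Tspo, a mitochondrial membrane protein, at 545, 909 and 759.7 and 1371 and 1353. Tph1, which starts serotonin synthesis, had 0 counts in the 3 KO libraries and was at 20.6 and 26.3 CPM in Ski flox Control and 0 and 14 in Control. Its adjusted p was 0.341 by edgeR, 0.00261 by DESeq2 and 0.0191 by limma voom.

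Higher in KO were Kcnq1, an epithelial potassium channel, at 44.4, 25 and 4.02 CPM in KO with 0 counts in Ski flox Control, and the desmosomal gene Pkp2, at 21.5, 10.9 and 3.52 CPM and likewise 0. In Control they were at 40.6 and 67.4 and 11.7 and 26.5 CPM.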
